A study of Homo sapiens with 7 samples.

Results

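On chromosome 15, the authors' list placed 2060 Myc peaks out of 47017 in all, which is 4.38% of the peaks on a chromosome that holds 617 of 20033 protein-coding genes, or 3.08%. These 2060 peaks were taken by their chromosome alone, and each stands for 1 interval with 1 summit, the base at which the signal was highest. The cells were HT29, a long-established culture of a colon adenocarcinoma, and all had spent 6 h in serum-free medium with oleic acid, a common monounsaturated fatty acid. The titles name 3 Myc libraries, 3 IgG libraries and 1 input library; the labels list a Myc antibody for the IgG libraries too, and the titles decided the groups. No cells without oleic acid were analysed here, so nothing below measures an effect of the fatty acid. A peak list holds no expression values, so the identity of the cells could not be checked against marker genes.

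Myc is a transcription factor of the basic helix-loop-helix leucine zipper class that binds DNA as a dimer with MAX, and its best known site is the E-box CACGTG. It is known for occupying the promoters of genes for ribosomes, protein synthesis, metabolism and the cell cycle, and in colon cancer cells its gene is a target of Wnt signalling. In CUT&RUN an antibody guides a nuclease to the protein on chromatin, and the cut fragments are sequenced. The list gives a fold enrichment for each peak, the fragments stacked at the summit plus 1 over the control level there plus 1, and this value is the authors'. Each interval beside a fold is a 95% exact Poisson interval on the fragment stack, with the control level taken as known, and so covers counting error only. The list has 1 value per peak over all Myc libraries, and no spread between libraries could be given.

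Promoter sequences of 5 genes are printed here to show what lies under strong summits of the chromosome, under summits beside an E-box, and at a start in the widest stretch without a peak. They come from RefSeq, build GRCh38.p14, run 5′ to 3′ on the strand of the gene, and cover 250 bases before and 50 after the start. CIB1 (chr15:90265710-90266009, minus strand) and INO80 (chr15:41116231-41116530, minus strand) had the strongest summits that fell inside such a window, at folds of 19.9 (17.1 to 23.02) and 17.7 (15.2 to 20.5); capitals mark the 11 bases centred on the summit. In SPG21 (chr15:64989421-64989720, minus strand) and NR2F2 (chr15:96332315-96332614, plus strand, a start inside the gene) capitals mark CACGTG. GABRG3 (chr15:26970931-26971230, plus strand) has no capitals, since its nearest summit lay 888543 bp from this start.
CIB1: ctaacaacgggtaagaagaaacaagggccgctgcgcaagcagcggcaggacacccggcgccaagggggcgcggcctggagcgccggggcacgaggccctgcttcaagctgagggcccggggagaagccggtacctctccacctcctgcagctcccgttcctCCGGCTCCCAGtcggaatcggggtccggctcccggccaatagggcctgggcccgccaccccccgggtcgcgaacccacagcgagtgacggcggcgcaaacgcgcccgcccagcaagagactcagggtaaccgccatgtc
INO80: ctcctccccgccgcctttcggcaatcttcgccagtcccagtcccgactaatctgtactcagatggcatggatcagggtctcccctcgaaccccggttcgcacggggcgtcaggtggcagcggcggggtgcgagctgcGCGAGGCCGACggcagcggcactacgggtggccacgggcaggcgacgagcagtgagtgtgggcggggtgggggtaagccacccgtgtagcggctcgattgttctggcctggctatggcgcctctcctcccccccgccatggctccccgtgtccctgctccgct
SPG21: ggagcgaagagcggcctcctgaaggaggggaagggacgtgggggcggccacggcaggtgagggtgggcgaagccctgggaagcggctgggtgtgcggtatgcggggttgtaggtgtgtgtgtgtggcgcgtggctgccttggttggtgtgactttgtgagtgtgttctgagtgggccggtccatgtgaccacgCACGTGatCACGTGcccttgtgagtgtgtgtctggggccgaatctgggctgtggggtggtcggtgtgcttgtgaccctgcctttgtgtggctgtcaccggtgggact
NR2F2: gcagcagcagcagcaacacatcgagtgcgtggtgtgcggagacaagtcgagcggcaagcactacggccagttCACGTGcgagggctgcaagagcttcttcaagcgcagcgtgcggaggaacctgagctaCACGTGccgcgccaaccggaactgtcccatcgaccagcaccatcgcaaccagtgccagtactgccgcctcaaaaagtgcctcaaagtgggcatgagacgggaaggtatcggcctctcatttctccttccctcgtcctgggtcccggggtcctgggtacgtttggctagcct
GABRG3: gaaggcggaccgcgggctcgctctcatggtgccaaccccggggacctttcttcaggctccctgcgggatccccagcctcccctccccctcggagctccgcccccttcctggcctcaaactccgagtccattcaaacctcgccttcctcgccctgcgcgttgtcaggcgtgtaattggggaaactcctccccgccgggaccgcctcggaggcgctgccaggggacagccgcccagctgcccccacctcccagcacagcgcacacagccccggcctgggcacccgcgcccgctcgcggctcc

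The CIB1 and INO80 windows hold no CACGTG, although their summits lay 84 and 108 bp before the start. They are rich in G and C, at 70.7% and 69.3% of bases, and hold 31 and 30 CG dinucleotides. SPG21, which encodes a protein known as maspardin, has 2 copies of CACGTG, and the nearer of them lies 176 bp from a summit with a fold of 9.50 (7.55 to 11.8). NR2F2, which encodes the nuclear receptor COUP-TFII, also has 2 copies, 129 bp from a summit with a fold of 7.65 (5.77 to 9.97). The GABRG3 window is as GC-rich as the first 2, at 71.7% with 27 CG dinucleotides, and has no CACGTG. The printed windows with and without a summit thus overlap in base composition. Of the 87 chromosome 15 windows with a summit inside, 8 hold CACGTG, and of the 6 with the strongest summits 0 do.

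Over all listed starts of the chromosome, CACGTG was found in 50 of 769 windows (6.50%, Wilson 95% interval 4.97 to 8.47), against 8.40% of 21429 windows on the other chromosomes with listed starts. It stood in 8.28% (6.09 to 11.2) of the 459 chromosome 15 windows with a summit within 1 kb of the start and in 3.87% (2.23 to 6.64) of the 310 without one. On the other chromosomes these shares were 10.2% and 6.23%. CACGTG reads the same on both strands. A related hexamer, CACGCG read on either strand, was found in 19.6% (16.2 to 23.5) of the chromosome 15 windows with a summit within 1 kb and in 10.97% (7.96 to 14.9) of those without. On the other chromosomes these shares were 18.8% and 8.55%. Of the 87 chromosome 15 windows with a summit inside, 13.8% (8.07 to 22.6) held CACGCG. That was below the 16.1% of all 769 windows, while elsewhere 20.5% of windows with a summit inside held it. Median GC content was higher with a summit within 1 kb than without, 66.3% against 57.5%, as was the count of CG dinucleotides, with medians of 26 against 8. Its part in the hexamer shares was not tested.

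The list was denser on chromosome 15 than on most chromosomes. It held 3.34 peaks for each protein-coding gene of chromosome 15 (exact Poisson 95% interval 3.20 to 3.49), against 4.63 (4.40 to 4.87) on chromosome 13, 1.53 (1.44 to 1.64) on chromosome 14 and 2.32 over all other chromosomes. Among the 22 autosomes and the X, this was rank 4, below chromosomes 8, 13 and 20 and next above chromosome 7. The control level under the summits stood in the same order, with a median of 6.43 fragments on chromosome 15, 7.20 on chromosome 13, 5.093 on chromosome 14 and 5.89 on all others. The control has a genome-wide floor of 5.093 fragments, and 6.75% (5.74 to 7.91) of chromosome 15 summits were at it, against 1.28% on chromosome 13, 59.8% on chromosome 14 and 24.5% on all others. Over the 23 chromosomes, median control level and peaks per gene had a Pearson r of 0.912 and a Spearman rho of 0.888, and 0.914 and 0.872 with chromosome 15 left out. These points come from the same libraries and the same list, and the part of the control level in the density was not tested.

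**Figure D1:**
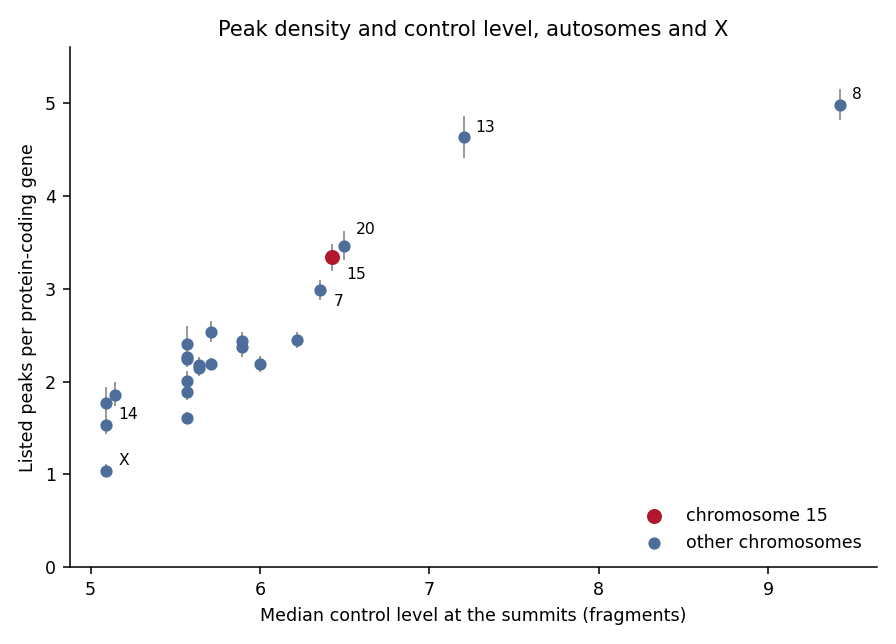
Peaks per protein-coding gene (vertical axis, bars are 95% exact Poisson intervals) against the median control level at the summits in fragments (horizontal axis), 1 point for each of 22 autosomes and the X. Chromosome 15, in red, sits at 3.34 peaks per gene and 6.43 fragments, between chromosomes 7 and 20 and below 13 and 8.

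Peaks of chromosome 15 were close in width and stack to the pooled peaks of the other chromosomes, but their median fold ranked low. It was 3.97, against 4.112 on all other chromosomes, and 5% lay under 2.47 and 5% above 12.1. With the Y left out, this median was rank 19 of 23 chromosomes. Only chromosomes 7 (3.92), 20 (3.78), 13 (3.57) and 8 (2.75) were lower, and chromosome 8 put 3557 peaks into the pooled value. The same chromosomes stood above or next below chromosome 15 in peaks per gene. The median width of chromosome 15 peaks was 700.5 bp against 687 bp, and the median stack at the summit was 30 fragments against 29. Widths ran between 218 and 9461 bp, and all intervals of the chromosome together covered 2.01 Mb. The weakest entries by q lay inside IQCH, beside RAB11A and inside SMAD3, with −log10 q of 1.304, 1.32 and 1.33 on 14, 18 and 17 fragments. The strongest had −log10 q of 312 on 264 fragments.

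That strongest peak, with a fold of 35.7 (31.5 to 40.2), lay inside GALK2, the gene of a kinase of N-acetylgalactosamine at chr15:49155774-49367740. Its summit at position 49170362 was 14588 bp from the end of the gene but 346 bp downstream of a second listed start. The annotated end of GALK2, which faces COPS2, a subunit of the COP9 signalosome, had its own summit with a fold of 9.05 (7.11 to 11.4). The next strongest peak, at 24.9 (21.4 to 28.8), lay inside ENTREP2, 4117 bp from its end. Whether these summits fall in exons or introns is not given in the gene table used here. Then came 3 summits in the same megabase, at 22.99 (19.6 to 26.8) between genes and 26.7 kb from SEMA4B, at 22.4 (18.9 to 26.4) inside the zinc finger gene ZNF710 and at 22.1 (18.98 to 25.5) inside SEMA4B, a semaphorin. So the 5 strongest summits of the chromosome were all beyond 1 kb of an annotated gene end.

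A summit lay within 1 kb of either annotated end of a protein-coding gene in 395 cases, or 19.2% (17.5 to 20.9), against 10.99% on chromosome 13, 37.7% on chromosome 14 and 23.9% on all others. Counted by genes the order was another one. On chromosome 15, 392 of 617 protein-coding genes (63.5%, 59.7 to 67.2) had such a summit, against 53.6% on chromosome 13, 60.3% on chromosome 14 and 56.2% over all others; over all protein-coding genes of the list the share was 56.4%. Only chromosome 16 had a higher share among the autosomes and the X. The gene table holds 15 protein-coding records of chromosome 15 that end at or below 4.54 Mb, while the lowest summit lies at position 19467412; without them the share was 65.1% (61.2 to 68.8) and the density 3.42 peaks per gene. Of the 392 genes, 107 shared their strongest summit with another protein-coding gene. The 225 genes without one lay a median of 9885 bp from the nearest summit, and 52 of them over 50 kb.

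By position, all 2060 summits fell into 6 classes. Within 1 kb of a listed start there were 366 (17.8%), with a median fold of 7.75 and a median width of 1626 bp. On the other chromosomes with listed starts the share was 22.6%, the median fold 7.34 and the width 1429 bp. A further 88 (4.27%) were near an annotated end only, with a median fold of 5.03. Inside genes and beyond 1 kb there were 904, which is 43.9% (41.8 to 46.0) against 37.4% elsewhere, with a median fold of 3.59 against 3.78. Outside coding genes, 75 (3.64%) were within 1 kb of the end of a long noncoding RNA gene with a median fold of 4.84, 438 (21.3%) were up to 50 kb from a coding gene, and 189 (9.18%) were farther away with a median fold of 3.63. By these medians, summits at starts were stronger and wider than those of the other classes, on chromosome 15 and elsewhere.

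Within 1 kb of a listed start, 363 of 540 chromosome 15 genes (67.2%, 63.2 to 71.1) had a summit, against 59.9% elsewhere and 60.1% over all genes with a listed start. Among 525 chromosome 15 genes of known strand and over 2 kb long, 297 (56.6%) had a summit at the 5′ end only, 10 (1.90%) at the 3′ end only, 38 (7.24%) at both and 180 (34.3%) at neither. The same shares elsewhere were 52.7%, 2.44%, 5.53% and 39.3%. The median fold was 8.48 at 5′ ends and 3.94 at 3′ ends on chromosome 15, against 8.002 and 4.69 elsewhere. Starts inside a gene added 29 genes, which brought the count to 421 of 617 (68.2%, 64.5 to 71.8). AEN, a nuclease induced by p53, had no summit at an end, but 1 of fold 17.4 (14.7 to 20.5) lay 117 bp after its listed start. TPM1, which encodes tropomyosin 1, had 7.26 (5.50 to 9.41) at 12 bp after a start, and TIPIN, a replication fork protein, had 13.4 (10.7 to 16.5) at 208 bp. TJP1, the tight junction protein ZO-1, had 10.7 (8.51 to 13.3) at 224 bp before a start. SMAD3, a mediator of TGF-β signalling, had 4.97 (3.41 to 7.03) at 130 bp after one.

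Within 2 kb of a listed start, 426 summits of chromosome 15 stood in a divided pattern. In the first 200 bp downstream of the start there were 145 (34.0%), and between 400 and 200 bp upstream 73 (17.1%), with 33 (7.75%) in the 200 bp between. On the other chromosomes the same 3 shares were 33.4%, 16.5% and 9.35% of 10846. Downstream of the start lay 58.7% on chromosome 15 and 60.4% elsewhere, with median positions of +95 and +107 bp. A window of 250 bases before to 50 after the start, as printed above, therefore took in 15.7% of these summits.

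**Figure D2:**
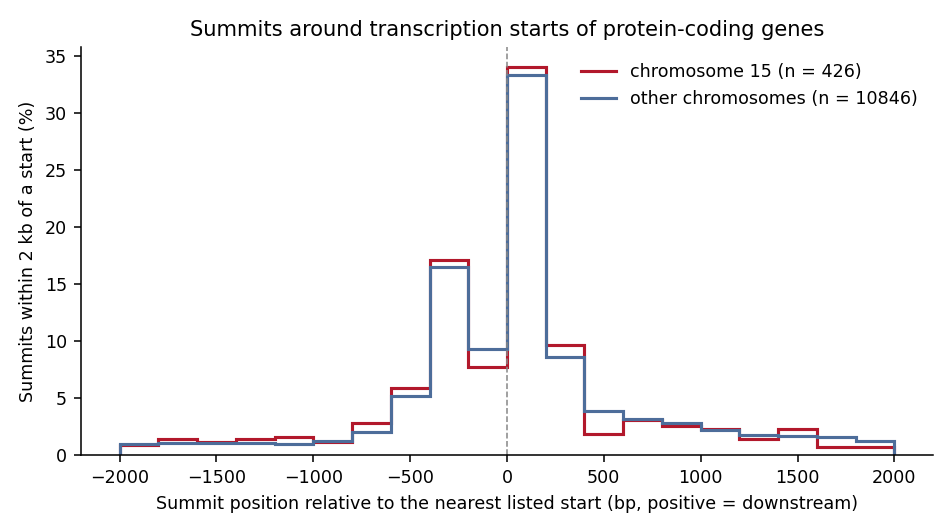
Share of summits within 2 kb of a listed start of a protein-coding gene (vertical axis, percent) in steps of 200 bp by position (horizontal axis, bp, downstream positive), for 426 summits of chromosome 15 in red and 10846 of other chromosomes in blue. Both lines have their highest step at 0 to 200 bp, a smaller one at 400 to 200 bp upstream and a dip between them.

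The strongest peaks of chromosome 15 stood at a gene end more often than the weaker ones, with the difference lying in deciles 8 to 10 of fold. In the weakest decile, of 206 peaks, 7.28% (4.46 to 11.7) were within 1 kb of one, and in decile 2 the share was 3.88% (1.98 to 7.48). The share was 28.2% in decile 8, 45.2% in decile 9 and 58.3% (51.4 to 64.8) in the strongest. Between deciles 3 and 7 it lay at 6.796% to 13.1%. Peaks of the weakest decile had a median width of 355 bp and a stack of 18 fragments, those of the strongest 2030 bp and 95.5 fragments. Control levels gave no such order, with medians of 6.95 and 6.57 fragments in these deciles.

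**Figure D3:**
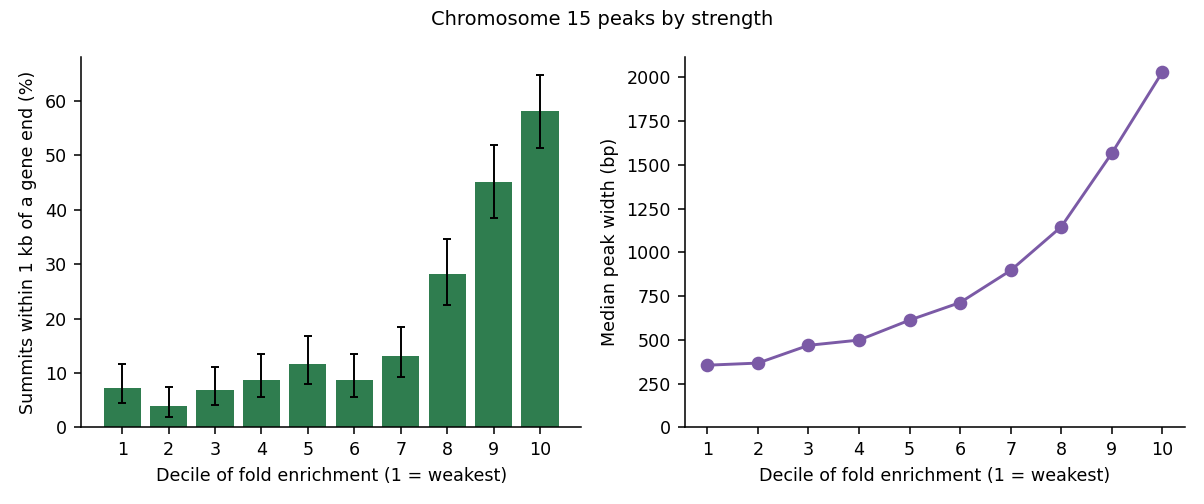
Left, the share of chromosome 15 summits within 1 kb of a protein-coding gene end (percent, bars are Wilson 95% intervals) by decile of fold enrichment; right, the median peak width in bp by the same deciles of 206 peaks each. The share is 7.28% in decile 1 and 58.3% in decile 10, and the width 355 and 2030 bp.

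The strongest summits at gene ends belonged to genes of varied function. SELENOS, a selenoprotein of protein quality control in the endoplasmic reticulum, had 19.95 (16.7 to 23.7), with the summit 144 bp after its start. CIB1, a calcium and integrin binding protein, shared its 19.9 with NGRN, a gene needed for mitochondrial ribosome assembly, which starts on the other strand with its annotated end 180 bp from the summit. RPL4, a protein of the large ribosomal subunit at chr15:66498015-66504855, shared 19.2 (16.1 to 22.7) with ZWILCH, a kinetochore protein of the mitotic checkpoint; the summit was 188 bp after the RPL4 start and 659 bp before that of ZWILCH. GABPB1, a subunit of the GA-binding transcription factor, had 19 (16.4 to 21.9), C15orf61 had 18.7 and ANXA2, a membrane-binding annexin, 18.3 (15.4 to 21.6). CSNK1G1, a casein kinase, had 17.9, SCAMP2, a membrane protein of secretory carriers, 17.8, and INO80, the motor of a chromatin remodelling complex, 17.7. LPCAT4, an acyltransferase of phospholipids, had 17.6, the deubiquitinase gene USP3 17.5, the ubiquitin-conjugating enzyme gene UBE2Q2 17.4 and PDE8A, a cyclic AMP phosphodiesterase, 17.3. RPP25, a subunit of RNase P, also had 17.3, and C15orf62 had 17.2. Counting intervals of neighbours in this order overlapped throughout.

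At the other end of the scale, summits at gene ends reached down to 2.11 (1.297 to 3.27) beside RAB11A, a GTPase of recycling endosomes. That gene had a stronger summit of 10.3 (8.17 to 12.7) at 174 bp after its start. The next weakest were 2.31 near GRAMD2A, 2.31 where TEX9 and MNS1 overlap, 2.33 near MYO5A, a myosin that carries vesicles, and 2.35 near NGRN at its 3′ side. Each rested on 16 to 25 fragments.

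The widest peak of the chromosome covered 9461 bp around the start of ANXA2. The others were 8638 bp inside the chromatin remodeller gene CHD2, with a fold of 13.3 (10.8 to 16.3), and 6786 bp inside SIN3A, a corepressor scaffold, with 16.2 (13.6 to 19.1). TLE3, a Groucho-type corepressor that binds the factors of Wnt signalling, had a peak of 6386 bp with 11 (8.97 to 13.4). NR2F2 had 6147 bp.

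Far from protein-coding genes, the strongest summit had a fold of 17.9 (14.8 to 21.4) at 70.1 kb from ASB7. It lay inside the long noncoding RNA gene LOC105371024, over 1 kb from its ends. Another, with 17.5 (15.1 to 20.2), lay 90.9 kb from CHD2 but 414 bp after the start of the long noncoding RNA gene LOC124903558. A summit of 13.1 (10.8 to 15.7) stood 138.2 kb from RPLP1 at PCAT29, a long noncoding RNA first described in prostate cancer. Those at 114.4 kb from PDE8A and 54.6 kb from TRPM1 had 12.8 and 12.1. The latter lay 248 bp before the start of the long noncoding RNA gene LINC02352. These summits, picked as the strongest far from coding genes, had folds above 8.35, the median of genes with a summit at an end. The 189 summits over 50 kb from a coding gene and beyond 1 kb of a long noncoding RNA gene end had a median of 3.63. Some of the summits named here stood beside starts of noncoding genes.

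Along the chromosome, summits lay a median of 12540 bp apart, against 13401 bp elsewhere, and 248 of 2059 gaps (12.04%) were under 2 kb. Of 83 bins of 1 Mb between the lowest and the highest summit, 5 had no summit, 24 had under 10 and 13 had 50 or more, with a median of 20. The 13 fullest bins held 819 summits (39.8%). Over the 83 bins, summits and protein-coding genes had a Pearson r of 0.70 and a Spearman rho of 0.634. Over the 59 bins with at least 10 summits, summits and the median control level had a Spearman rho of -0.17, and that level stayed between 5.72 and 7.53 fragments. Neighbouring bins share the libraries and are not independent. The first 20 Mb, from 19 to 39 Mb, were sparse, with 185 summits and a summit at 33 of 95 genes (34.7%). The genes without one included many members of the GOLGA6L and GOLGA8 families. Whether fragments from such gene copies could be placed was not tested. Between 39 and 60 Mb there were 586 summits and 151 of 195 genes (77.4%), between 60 and 79 Mb 735 and 118 of 180 (65.6%), and from 79 Mb to the highest summit 554 and 90 of 132 (68.2%). These borders were set after the counts were seen.

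**Figure D4:**
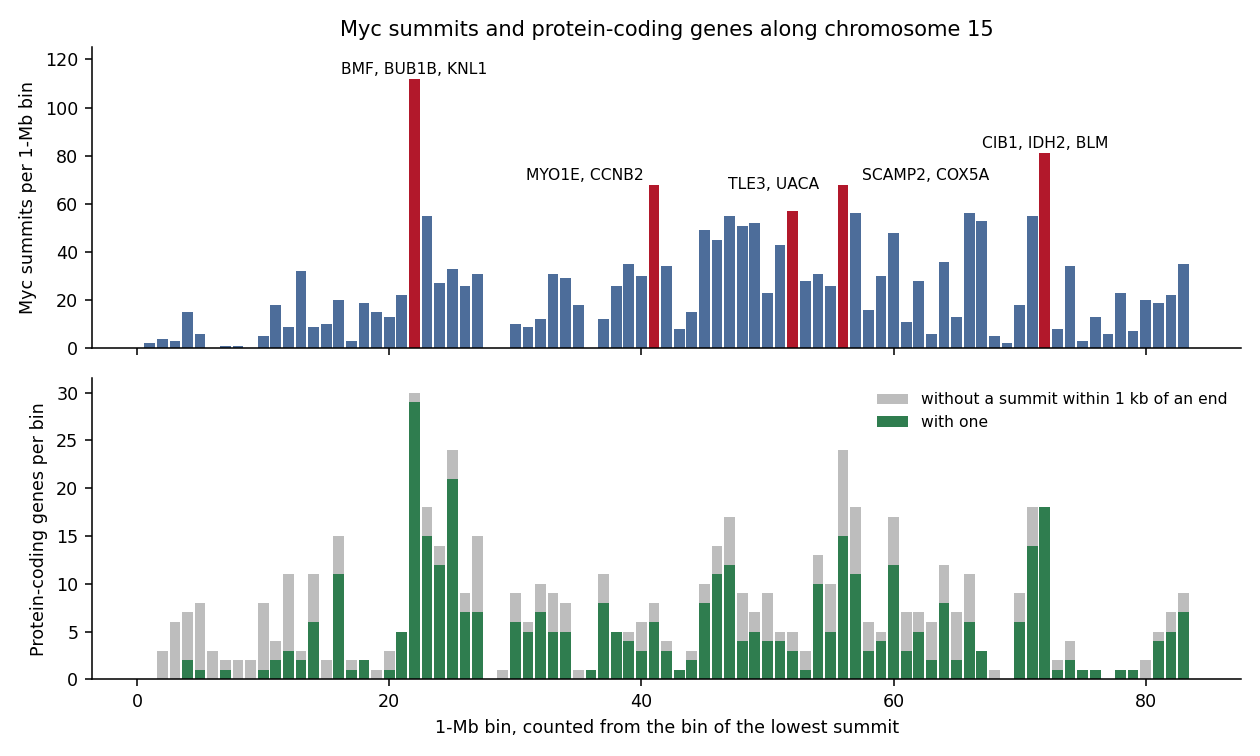
Top, Myc summits per 1-Mb bin along chromosome 15, with the 5 densest bins in red and named by genes in them; bottom, protein-coding genes per bin, in green those with a summit within 1 kb of an end and in grey those without. The horizontal axis counts bins from that of the lowest summit. The fullest bin holds 112 summits and 30 genes, and 5 bins hold no summit.

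The densest bin, 40 to 41 Mb, held 112 summits (92.2 to 134.8), and 29 of its 30 protein-coding genes had a summit at an end. Only BAHD1, a gene of heterochromatin formation, had none there, with its nearest 2579 bp away, although a summit of 4.71 lay at one of its inner starts. C15orf62 had 17.2, and BMF, a cell death gene of the BCL2 family, 15.98 (13.04 to 19.4). DNAJC17, a co-chaperone, and ZFYVE19, a protein of the abscission checkpoint, start on opposite strands and shared 15.1 (12.4 to 18.1), and GCHFR, a regulator of tetrahydrobiopterin synthesis, had 14.1. BUB1B, a kinase of the mitotic checkpoint, had 8.94 (7.18 to 11.01) and KNL1, a kinetochore scaffold, 9.71. Of the 112 summits, 36 were at gene ends, 37 were inside genes beyond 1 kb and 39 outside genes. The intervals here covered 121.0 kb, more than in any other bin of the chromosome.

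The bin 90 to 91 Mb held 81 summits (64.3 to 100.7), and 18 of its 18 genes had a summit at an end. Beside CIB1 with NGRN and TTLL13 at 19.9, GDPGP1, an enzyme of nucleotide sugar metabolism, had 16.1 (13.5 to 19.2), the hydrolase gene HDDC3 14.9 (12.5 to 17.6) and IDH2, the mitochondrial isocitrate dehydrogenase, 13.8 (11.01 to 17.1). The 3 strong summits around SEMA4B and inside ZNF710 stood in the same bin. ZNF710 had 13 summits inside it in 83.9 kb, with a median fold of 6.87. BLM, a helicase of the RecQ family, had 12.1 (9.69 to 15) at 338 bp before its start.

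The bin 59 to 60 Mb held 68 summits (52.8 to 86.2) but only 8 protein-coding genes, 6 of them with a summit at an end. CCNB2, cyclin B2 of the cell cycle, had 13.3 (10.7 to 16.3), GCNT3, a glycosyltransferase of mucin synthesis, 8.86, BNIP2 8.20, the ubiquitin ligase gene RNF111 7.58 and MYO1E 7.39 (5.69 to 9.43). LDHAL6B, at 15015 bp, and FAM81A, at 5294 bp, had none at an end. A summit of 8.35 (6.43 to 10.7) lay 332 bp after the listed start of FAM81A. Inside MYO1E, a class I myosin gene of 240.4 kb at chr15:59132434-59372871, there were 31 summits, the most in any gene of the chromosome. Their median fold was 3.19 and the highest was that at the start. At 128.9 summits per Mb, against 24.97 over the chromosome, they were close together, and their median width was 430 bp. Summits of this bin were weaker than those at 40 to 41 Mb, with medians of 3.49 and 4.94.

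The bin 74 to 75 Mb held 68 summits as well, with a summit at 15 of 24 genes. SCAMP2 had 17.8, RPP25 17.3, ULK3, a kinase of autophagy and Hedgehog signalling, 16.4 (13.6 to 19.7), COX5A, a subunit of cytochrome c oxidase, 11.2 (9.29 to 13.4) and FAM219B 8.75. Inside CCDC33 there were 13 summits with a median fold of 3.69. The bin 70 to 71 Mb held 57 (43.2 to 73.9), with a summit at 3 of 5 genes. THAP10 had 15.6 (12.8 to 18.9), TLE3 11 and UACA 3.19 (2.03 to 4.802), the last of these at its 3′ end. Inside UACA the bin held 6 summits, with a median fold of 3.44 and a highest of 15.1. LRRC49 and LARP6 had none at an end, but the THAP10 summit was also 112 bp after a listed start of LRRC49. In the 556.6 kb between TLE3 and UACA, which hold no protein-coding gene, there were 30 summits with a median fold of 3.83 and a highest of 11.2 (9.12 to 13.7). Just outside these 5 bins, 75 to 76 Mb and 84 to 85 Mb had 56 summits each.

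After MYO1E, the genes with most summits inside were AKAP13, an anchoring protein of protein kinase A, with 22, THSD4 with 20, SMAD3 with 19, ABHD2, a serine hydrolase, with 17 and IGF1R, the receptor of insulin-like growth factor 1, with 15. Per length SMAD3 was the densest of these, with 146.6 summits per Mb against 128.9 in MYO1E and 29.1 in THSD4. The highest fold inside was 14.2 (11.8 to 16.9) in AKAP13, 13.2 in THSD4, 12.1 in ABHD2, 11.3 in SMAD3 and 9.40 in IGF1R. IGF1R had no summit at an annotated end, the nearest being 1316 bp away, and SMAD3 none nearer than 1385 bp.

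Of the 5 widest gaps between summits, 2 lay in the proximal long arm. The widest, 2.24 Mb between summits at 26082638 and 28321551, spans genes that include GABRA5 and GABRG3, which encode subunits of the GABA-A receptor, and OCA2, a pigmentation gene. A gap of 2.11 Mb spans GOLGA8S, GOLGA6L2, MKRN3, MAGEL2, NDN, NPAP1, SNRPN and SNURF, several of which are imprinted and expressed from the paternal copy, in the interval lost in Prader-Willi syndrome. A gap of 2.18 Mb around SEMA6D, a semaphorin of axon guidance, and gaps of 1.303 and 0.848 Mb with no protein-coding gene complete the 5 widest. A gap says only that no peak passed the authors' threshold there. UBE3A, the ubiquitin ligase gene of Angelman syndrome, lies almost wholly inside the gap of 2.11 Mb. Its summit of 9.48 (7.34 to 12.1), at 131 bp after a start, is the upper edge of that gap.

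Genes of the chromosome were also grouped by role, with counts read beside the 63.5% of chromosome 15 genes and the 56.4% of all genes. For ribosomes, RNA processing and translation, 22 of 26 genes (84.6%, 66.5 to 93.9) had a summit at an end, with a median fold of 10.5 against 8.35 over all chromosome 15 genes with one. RPL4 led with 19.2, followed by SNRPA1, a protein of the U2 spliceosome particle, with 17.1 (14.4 to 20.1) and RSL24D1, a ribosome assembly factor, with 13.5 (11.2 to 16.2). RPLP1, a protein of the large subunit, had 10.9 and EIF3J, an initiation factor, 13.4. MRPL46 and MRPS11, of the mitochondrial ribosome, start on opposite strands beside a shared summit of 12.1. AEN, DIS3L, LARP6 and SNRPN had none, at 3791, 1082, 2253 and 460170 bp; AEN and DIS3L had a summit at a listed start.

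For the cell cycle, replication and genome stability, 28 of 31 genes (90.3%, 75.1 to 96.7) had a summit at an end, with a median fold of 9.39. ZWILCH had 19.2 through the summit it shares with RPL4, and INO80 17.7. NUSAP1, a spindle protein, and OIP5, a centromere protein, shared 10.98 (8.93 to 13.4), and TP53BP1, a mediator of double-strand break repair, had 8.03. FANCI, of the Fanconi anaemia pathway, had 8.39 and PCLAF, a PCNA-binding protein, 8.09. The lowest were 5.16 at WDR76 and 5.34 at PRC1, a bundler of the midzone spindle. NEIL1, PIF1 and TIPIN had none at an end, at 1722, 1492 and 1370 bp, and each had a summit within 1 kb of a listed start.

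Of 33 transcription factors and cofactors, 21 (63.6%, 46.6 to 77.8) had a summit at an end, with a median fold of 7.32. GABPB1 had 19, ZSCAN2 16.9 (14.3 to 19.7) and ZSCAN29 14.04, the last shared with TUBGCP4, a protein of the gamma-tubulin ring. SMAD6, an inhibitor of BMP signalling, had 12.1, KLF13 11.6 and MEF2A 7.48. MGA, which encodes a partner of MAX that acts against Myc in the same network, had none, with its nearest summit 4311 bp from an end and 1 summit inside. RORA, a nuclear receptor of the circadian clock, had none at an end and 11 inside. TCF12, an E-protein, had none at an end, 12 inside and 10.5 (8.23 to 13.2) at an inner start.

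Of 31 genes of growth factor and kinase signalling, 22 (71.0%, 53.4 to 83.9) had a summit at an end, with a median fold of 6.48. BMF had 15.98, FEM1B, a substrate receptor of a ubiquitin ligase, 12.4 (10.0 to 15.2) and SPINT1, an inhibitor of the hepatocyte growth factor activator, 10.97. BMF, a cell death gene, and FEM1B are neither growth factor nor kinase genes, so this list is broader than its name. MAPK6 had 10.0 and IQGAP1, a scaffold of small GTPases, 8.20. The summit nearest to an end lay 1175 bp away for MAP2K1, the kinase MEK1, and 1072 bp away for SPRED1, an inhibitor of Ras signalling. FGF7, GREM1 and RASGRP1 had none within 26978, 12805 and 33857 bp of an end.

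The cells had been given a fatty acid, so genes of lipid, fatty acid and retinoid metabolism were counted too. Of these, 16 of 28 (57.1%, 39.1 to 73.5) had a summit at an end, with a median fold of 7.93. SCAMP2 and LPCAT4 had 17.8 and 17.6 and STARD9 12.7; SCAMP2 and STARD9 act in membrane traffic and along microtubules more than in lipid metabolism. IVD, an acyl-CoA dehydrogenase of leucine breakdown, had 11.2 (8.88 to 13.8), SLC27A2, a transporter and acyl-CoA synthetase of long-chain fatty acids, 9.57 (7.42 to 12.2) and ETFA, which takes electrons from acyl-CoA dehydrogenases, 9.43 (7.34 to 11.9). HACD3, of very long-chain fatty acid synthesis, had 9.38. PLIN1, a coat protein of lipid droplets, and LIPC, the hepatic lipase, had none within 1 kb, the nearest at 1041 and 1329 bp. CYP11A1, CYP19A1 and CRABP1, genes of steroid and retinoid metabolism, had none within 6309, 28625 and 26839 bp of an end. With no library without oleic acid, these values cannot be tied to the treatment.

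For energy metabolism and mitochondria, 24 of 29 genes (82.8%, 65.5 to 92.4) had a summit at an end, with a median fold of 8.85. SORD, sorbitol dehydrogenase, had 15.4 (12.7 to 18.4), IDH2 13.8 and GATM, an enzyme of creatine synthesis, 12.3, shared with AFG2B. POLG, the polymerase of mitochondrial DNA, had 11.6, PKM, the pyruvate kinase of glycolysis, 10.8 (8.55 to 13.5) and IDH3A, a subunit of the NAD-dependent isocitrate dehydrogenase, 9.51. CKMT1A and CKMT1B, mitochondrial creatine kinases, are near-identical copies, so their values of 7.20 and 7.36 are uncertain. DUOX2, DUOXA2, HDC, SLC28A2 and SQOR had none at an end.

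For epithelial adhesion and cytoskeleton, 22 of 28 genes (78.6%, 60.5 to 89.8) had a summit at an end, with a median fold of 7.91. CIB1 had 19.9, ANXA2 18.3 and ADAM10, a protease that sheds membrane proteins, 14.8 (11.9 to 18.1). RAB11A had 10.3, MYO5C 10.0 and B2M, the light chain of MHC class I, 8.09, shared with PATL2. The 22 genes include B2M and the glycosyltransferase gene GCNT3, which are not genes of adhesion or the cytoskeleton, so the name fits only part of the list. CAPN3, CORO2B, CYFIP1, ITGA11, TJP1 and TPM1 had none, although CYFIP1, TJP1 and TPM1 had a summit at an inner start.

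The last 2 lists stood lower. In the proximal imprinted and GABA receptor region, 5 of 15 genes (33.3%, 15.2 to 58.3) had a summit at an end, with a median fold of 7.002. TUBGCP5 had 9.69, UBE3A 9.48, NIPA1 7.002, NIPA2 6.86 and HERC2 4.37. Of 35 genes of nerve, muscle, eye, bone or germ line, 10 (28.6%, 16.3 to 45.1) had one, with a median fold of 3.96. CHRNA5, a subunit of the nicotinic acetylcholine receptor, had 16.4 (13.5 to 19.7), 431 bp from its end, while its neighbours CHRNA3 and CHRNB4 had none within 27101 and 58160 bp. FMN1, a formin, followed with 5.74 and OTUD7A with 5.25. ACTC1, the cardiac actin, and RYR3, a calcium channel of muscle and brain, had none within 81609 and 84344 bp. Some genes stand in more than 1 list, and the lists were drawn up by hand.

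**Figure D5:**
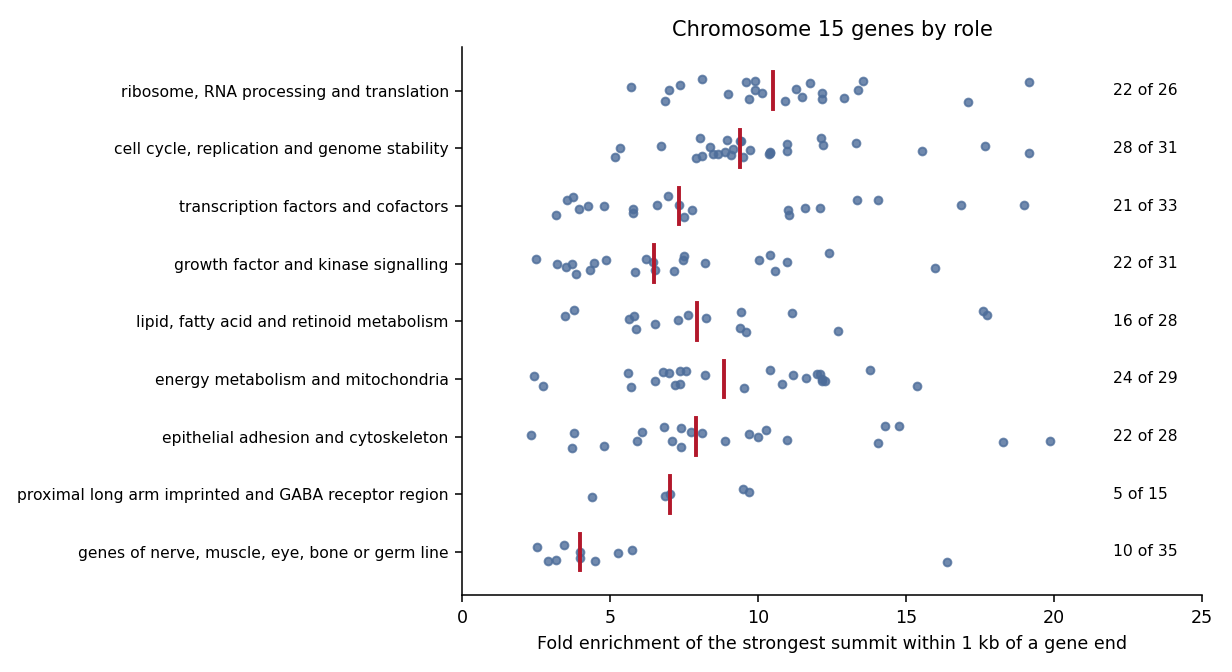
Fold enrichment of the strongest summit within 1 kb of a gene end (horizontal axis) for each gene with one, by role of the gene; red bars are medians, and the counts at the right give genes with a summit out of all genes in the list. Medians lie between 3.96 for genes of nerve, muscle, eye, bone or germ line and 10.5 for ribosome, RNA processing and translation.

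Among noncoding genes of chromosome 15, 156 of 631 long noncoding RNA genes (24.7%, 21.5 to 28.2) carried a summit at an end or under 1 kb from it, against 22.2% on the other chromosomes. Of these, 67 had it over 5 kb from the end of any protein-coding gene. Of 9 tRNA genes 7 had one (77.8%, 45.3 to 93.7), against 49.8% elsewhere, and 2 of these lay over 5 kb from a protein-coding gene end, a lysine tRNA gene with a fold of 9.20 (7.18 to 11.6) and a glutamate tRNA gene with 6.52 (5.002 to 8.36). The glutamate tRNA summit is the lower edge of the widest gap. Of 124 small nucleolar RNA genes 1 had one (0.807%, 0.143 to 4.43), against 9.12% elsewhere. This interval takes each gene as independent, which genes lying close together need not be. Most gene records in the gap that spans SNRPN are not protein-coding. How many of the small nucleolar RNA genes lie in that gap was not counted, and its part in the low share was not tested. Of 72 miRNA genes 7 had a summit (9.72%, 4.79 to 18.7), against 14.6% elsewhere. The strongest was at MIR3175, which lies within the wide CHD2 peak. Pseudogenes had one in 41 of 527 cases (7.78%, 5.79 to 10.4), against 3.18% elsewhere, and near-identical copies make such positions uncertain.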

How the data were processed

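Myc CUT&RUN was measured in HT29 cells with 3 Myc, 3 IgG and 1 input library, and the authors deposited 1 peak list in the narrowPeak format with no value per library. The submitters' processing notes name MACS2 2.1.2 among the tools, with BWA 0.7.15, and hg38 as the build; for settings, the control used and the joining of replicates nothing is stated in the labels or notes. The deposited fold enrichment is a ratio at the summit, and the deposited −log10 of p and of q and the display score are the authors' values. The lowest listed −log10 q was 1.302. Solving each pair of fold and −log10 p gave a whole-number stack of fragments and a control level, within 0.001 for 47016 of 47017 peaks; on 2000 simulated peaks the procedure gave back 100% of them. The depth of each library is unknown.

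Genes and starts came from RefSeq tables of assembly GRCh38.p14, with the same chromosome sequences as hg38. A listed start was known for 540 of 617 protein-coding genes of chromosome 15, and comparisons by start leave out the chromosome for which the table lists none. A summit counted as at a gene within 1 kb of either annotated end, and genes were put in the bin of their midpoint. Shares carry Wilson and counts exact Poisson 95% intervals, which cover counting error only, since fragments carry no molecular identifiers; no test was run. The chromosome, gene lists and rules were chosen with earlier results of these data known. Named genes are the 5 strongest per dense bin and any without a summit if at most 5, the 15 strongest and 5 weakest summits at ends, the 5 widest peaks, distal summits and gaps, and the top 3 per list with up to 5 without; all others were named after their values were seen, and a few genes that this rule takes in are not reported here. Alternatives were other distances, bins and thresholds. Python 3.11.15, pandas 2.3.3, numpy 2.4.6, SciPy 1.17.1 and matplotlib 3.10.9 were used.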

Additional observations from a re-analysis of the deposited data

How the results depend on the processing

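Each alternative value was set against the reported one, counts by a limit of 1.5 times and shares, densities and medians by the 95% interval of the reported value. Of 37, 23 stayed within these limits and 14 did not. Keeping 1 peak per interval removed no peak, since each interval holds 1 summit. Its values are among the 23 and could not have moved, so they say nothing about robustness. The limit for counts is the wider, so the 392 genes with a summit at an end became 280 to 469 within it, and the 112 summits of the fullest bin became 78 with bins shifted by 500 kb and 167 in bins of 2 Mb. With peaks of −log10 q of 5 or more only, 25.3% of chromosome 15 summits were at gene ends, there were 2.29 peaks per gene, the median fold was 5.06, the median width 963 bp, and 3 of the 5 densest bins were kept. With the top 1% by fold and any peak over 2 kb wide left out, these were 15.1%, 2.99 peaks per gene, a fold of 3.77 and 633 bp. The share at gene ends was 15.7% within 500 bp, 24.3% within 2 kb and 33.5% within 5 kb. In bins of 500 kb the fullest held 58 summits, and 3 of the 5 densest bins were kept when ranked by covered bases. Peaks per gene at −log10 q of 5 or more were 2.29 on chromosome 15, 2.82 on chromosome 13, 1.19 on chromosome 14 and 1.596 on all others, the same order as in the full list. All 36 list counts under other distances or starts stayed within 1.5 times the reported ones. Some of these alternatives, those of the lists and of the gene records below the lowest summit among them, were chosen after seeing the data. No paired analysis was possible because the list holds no values per library. The weakest peaks rest on as few as 14 fragments, the depth of each library is unknown, and nothing here measures the spread between the 3 Myc libraries.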
